A study of Mus musculus with 8 samples.

Results

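The neuropeptide precursors of the brain were followed through the spots named Cck, Sst, Penk, Npy, Pdyn, Tac1, Vip, Avp, Oxt or Pomc, a rule on gene names, while the match of names to spots was found in these data. Of these 10 genes, 7 were named on the array by 8 probes, out of 12131 named spots and 20794 spots in all. Tac1 had 2 probes, each other gene had 1, and no spot was named Pdyn, Vip or Oxt. Brain RNA came from 4 male ADAR-/-/GluR-BR/R mice, 19 weeks old, which lack the RNA-editing enzyme ADAR2 and carry alleles for the arginine form of the glutamate receptor subunit GluR-B. It was set against a wildtype RNA pool from 4 males of that age, although the labelling protocol states another number of control animals. Each mutant was hybridised on 2 two-colour cDNA arrays, with the mutant in Cy5 on the first and in Cy3 on the second, which gave 8 arrays. The mouse was the replicate (n = 4), and the pool, shared by all arrays, was 1 control sample whose spread between animals is left out of every test.

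A neuropeptide is made as a longer precursor protein, which prohormone convertases cut at basic residues inside secretory granules. The peptides are stored in dense-core vesicles, are released on activity and act mostly on receptors coupled to G proteins. In the brain Cck, Sst and Npy mark sets of cortical and hippocampal cells, Penk and Tac1 are strong in projection neurons of the striatum, and Avp and Pomc belong to small groups of hypothalamic cells. In whole-brain RNA, fewer cells of a type and less RNA per cell cannot be told apart.

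The values are log2 ratios of the channels of an array, here minus the median of that array. The labels do not say which dye is the numerator. Averaging both arrays of a mouse gave its mean ratio, which compares mutant and pool if every deposited ratio was formed between them in the same order. Subtracting the array that had the mutant in Cy3 from its partner and dividing by 2 gave the swap component, which is mutant over pool if the ratios are Cy5 over Cy3. Where either reading holds, the other quantity cancels mutant against pool and keeps what stays with the dye or the spot. Neither a difference between mutant and wildtype nor its direction is therefore settled for any gene below. Ratios hold no level, so whether the RNA carries brain markers could not be read from them.

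The arrays held 20211 to 20559 usable ratios. Their median absolute value was 0.361 to 0.486 with the mutant in Cy5 and 0.659 to 0.972 with the mutant in Cy3, so the second orientation spread more widely. Arrays of different mice correlated at 0.224 to 0.430 with the mutant in Cy5 and at 0.459 to 0.680 with the mutant in Cy3, and the arrays of a mouse at 0.257 to 0.392 (Pearson r across 18797 probes, which are not independent). Among pairs with the mutant in Cy3, the highest values joined mice 1 and 2 (0.680) and mice 3 and 4 (0.610). Adarb1, the disrupted gene, had a swap component of -1.23 ± 0.163 and -1.33 ± 0.267 in 2 of its 3 probes (moderated SE of limma, adjusted p = 0.0383 and 0.0424) and -0.10 ± 0.127 in the third (adjusted p = 0.628). Its mean ratios were 0.70 ± 0.168, 0.26 ± 0.422 and 0.12 ± 0.174 in the same order (adjusted p = 0.0297, 0.667 and 0.631). The stretch of transcript behind each probe was not known here, so a probe need not report the disrupted part.

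In the mean ratio 4 of the 8 precursor probes passed the limma test with a positive value, those of Penk, Avp, Cck and Sst, and 1 passed with a negative value, the Tac1 probe 8993. Over all 20595 probes tested, 17.0% passed above 0 and 13.3% below 0. In the swap component 1 of 6 precursor probes passed, Cck with a negative value, against 6.43% negative and 1.41% positive calls among 18797 probes. The split of all calls in the mean ratio depended on the centring, since 56.1% of them were positive with array medians subtracted and 37.4% as deposited. The median of all probes was -0.09 with medians subtracted and -0.25 as deposited. The median of the 8 precursor probes was 0.60 in the mean ratio, and that of the 6 probes tested in the swap component was -0.35, where all probes had -0.03.

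**Figure D1:**
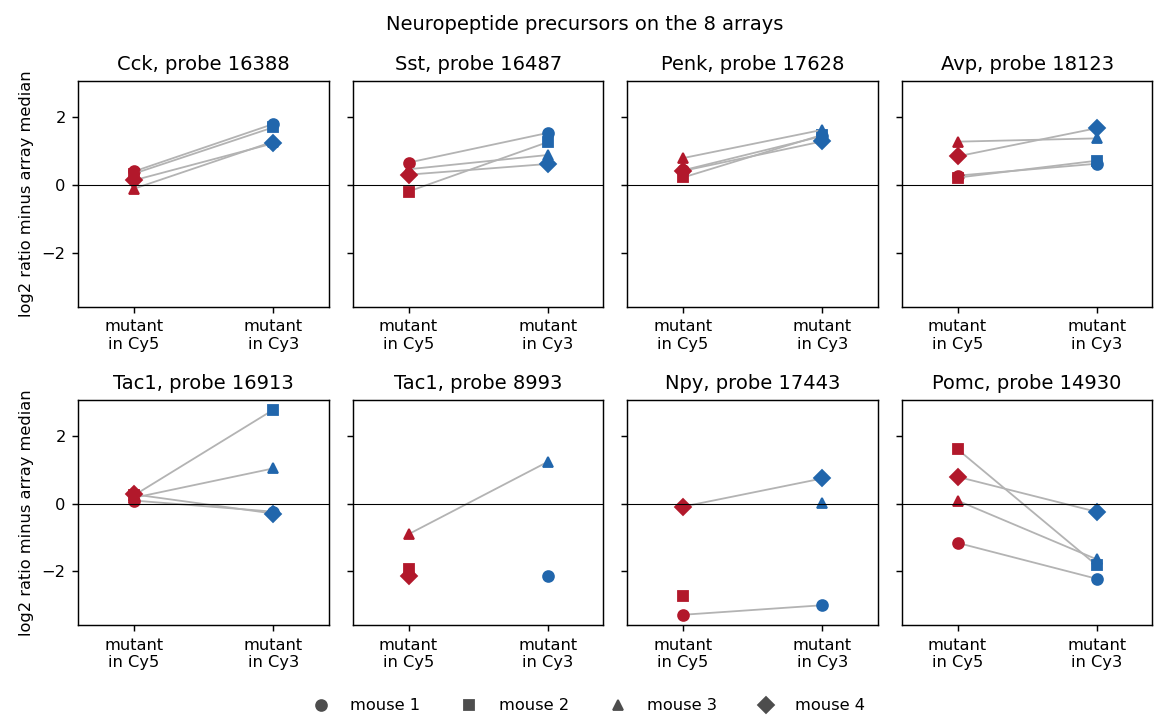
Log2 ratio minus the array median (vertical axis) of each precursor probe in both dye orientations, mutant in Cy5 (red, left) and mutant in Cy3 (blue, right), with a grey line joining the 2 arrays of a mouse and a marker shape for each mouse. Cck and Penk had every array with the mutant in Cy3 above every array with the mutant in Cy5, as did 16.7% of 18797 probes. Pomc was lower with the mutant in Cy3 in all 4 mice, and missing points of Tac1 probe 8993 and Npy are arrays without a value.

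Cck, the precursor of cholecystokinin (chr9:121489824-121495694, GRCm38.p6 as for all genes here), had log2 ratios of 0.40, 0.34, -0.11 and 0.14 in mice 1 to 4 with the mutant in Cy5, and 1.80, 1.71, 1.28 and 1.23 with the mutant in Cy3. The orientations did not overlap, as 16.7% of 18797 probes also showed in this direction. On its array, Cck lay between the 44.4th and the 80.3rd percentile of all spots with the mutant in Cy5, and between the 89.1st and the 97.5th with the mutant in Cy3. The mean ratio was 0.85 ± 0.154 (limma, adjusted p = 0.0144), a ratio of 1.80 on the linear scale, and 7.18% of all probes stood above it. The swap component was -0.66 ± 0.11 (adjusted p = 0.0383), with the mice at -0.70, -0.68, -0.70 and -0.55. It was therefore negative in 4 of 4 mice, and 4.68% of probes were lower. By orientation, the mean was 0.19 with the mutant in Cy5 (adjusted p = 0.497) and 1.51 with the mutant in Cy3 (adjusted p = 0.00531, limma). Without mouse 2 the mean ratio was 0.79 (limma, adjusted p = 0.0631). The swap component lost its call without any 1 of the mice (adjusted p = 0.0991 to 0.162) and as deposited (0.0591). It also lost it with runs of 48 consecutive spots centred (-0.44, adjusted p = 0.0899) and with arrays scaled to one spread (-0.43, adjusted p = 0.185). In each of these settings no probe on the array passed in the swap component, so the loss was not particular to Cck.

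Penk, the precursor of the enkephalins (chr4:4133536-4138815), had 0.44, 0.22, 0.80 and 0.42 in mice 1 to 4 with the mutant in Cy5, and 1.45, 1.48, 1.63 and 1.29 with the mutant in Cy3. All 8 values were above 0, which held for 13.1% of probes with a value on every array. The orientations did not overlap, as in 16.7% of 18797 probes in this direction. Penk had the highest mean ratio of the precursors, 0.97 ± 0.139 (limma, adjusted p = 0.00965), with the mice at 0.94, 0.85, 1.21 and 0.85. Its swap component of -0.50 ± 0.112 missed the threshold (limma, adjusted p = 0.051). It was negative in 4 of 4 mice, which follows from orientations that do not overlap. By orientation, the mean was 0.47 with the mutant in Cy5 (adjusted p = 0.174) and 1.46 with the mutant in Cy3 (adjusted p = 0.00471, limma).

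Sst, the precursor of somatostatin (chr16:23889573-23891342), had 0.66, -0.19, 0.47 and 0.31 in mice 1 to 4 with the mutant in Cy5, and 1.54, 1.27, 0.89 and 0.62 with the mutant in Cy3. Mouse 2 had the lowest value with the mutant in Cy5 and the second highest with it in Cy3, and the orientations overlapped at their ends. The mean ratio was 0.70 ± 0.162 (limma, adjusted p = 0.0269), with the mice at 1.10, 0.54, 0.68 and 0.47. Leaving out any of the 4 mice gave a mean ratio of 0.56 to 0.77 and took the call away (limma, adjusted p = 0.0589 to 0.0828). Over all probes the calls above 0 then fell from 3507 to between 1438 and 2204. The swap component was -0.38 ± 0.141 (adjusted p = 0.13).

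Cck, Sst and Penk had similar profiles over the 8 arrays. Pearson r was 0.850 for Cck with Penk, 0.818 for Cck with Sst and 0.810 for Sst with Penk, as a description over arrays that share a pool and fall into 2 dye orientations. Such values were common, since 12.8%, 15.7% and 10.1% of 11098 other named probes reached the same r with the first gene of each pair. Likeness here is of the pattern over arrays and not of the size of the ratio. The named probes most like Cck were Mrps23, a protein of the mitochondrial ribosome (r = 0.995, with a mean ratio of 0.08 where Cck had 0.85), Elp2, a subunit of the Elongator complex (0.992), and the neuronal transporter Slc6a17 (0.991). Those most like Sst were Sap18 (0.988), Fem1a (0.983) and Gprasp1, which sorts G protein-coupled receptors (0.982). Those most like Penk were Fam168a (0.993), the kinesin Kif5a (0.993) and the small GTPase Rab2a (0.992), each out of 11099 probes of other genes.

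Promoter sequences of 6 of the 7 genes were found in RefSeq (GRCm38.p6), and 3 are shown because they hold letters of the cyclic AMP response element, through which the factor CREB acts on genes of this family. Capitals mark TGACGTCA, its full palindrome, or TGCGTCA, a variant, both searched on both strands of windows of 300 bases around the start. These motifs were chosen with the sequences in view. They do not overlap in the windows shown. Each sequence runs 5′ to 3′ on the strand of the gene and ends at the base before the start of transcription. Cck is at chr9:121495695-121495814, minus strand, Sst at chr16:23890845-23890964, minus strand, and Tac1 at chr6:7554841-7555060, plus strand. The start used for Sst lies inside the annotated gene, so its sequence is upstream of that start and not of the whole gene.
Cck: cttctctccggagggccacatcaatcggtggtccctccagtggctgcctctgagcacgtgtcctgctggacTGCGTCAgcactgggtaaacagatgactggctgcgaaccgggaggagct
Sst: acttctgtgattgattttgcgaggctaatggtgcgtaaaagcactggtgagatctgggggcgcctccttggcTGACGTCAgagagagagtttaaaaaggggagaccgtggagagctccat
Tac1: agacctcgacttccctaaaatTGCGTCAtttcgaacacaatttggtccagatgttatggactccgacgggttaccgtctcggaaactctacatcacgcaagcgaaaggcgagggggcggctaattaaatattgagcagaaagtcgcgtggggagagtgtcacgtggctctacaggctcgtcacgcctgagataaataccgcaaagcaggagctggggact

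Sst held TGACGTCA at positions -48 to -41 from the start, and 1.79% of 32851 promoters held it somewhere in the window. Cck held TGCGTCA at -49 to -43 and Tac1 at -199 to -193, against 2.12% of all promoters. Neither string was in the windows of Npy, Avp or Pomc. No promoter sequence was found for Penk, so it was not searched.

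Avp, the precursor of vasopressin (chr2:130580620-130582588), was the other probe above 0 on all 8 arrays. It had 0.28, 0.22, 1.28 and 0.85 in mice 1 to 4 with the mutant in Cy5, and 0.63, 0.72, 1.38 and 1.68 with the mutant in Cy3. Both arrays of mice 3 and 4 lay above both arrays of mice 1 and 2, and the orientations overlapped. The mean ratio was 0.88 ± 0.215 (limma, adjusted p = 0.0313), with the mice at 0.46, 0.47, 1.33 and 1.26. The adjusted p was 0.0611, 0.0986 and 0.0972 without mouse 2, 3 or 4, and 0.0812 as deposited. The swap component was -0.22 ± 0.12 (adjusted p = 0.26).

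Npy, the precursor of neuropeptide Y (chr6:49822710-49829507), had the widest spread between mice. With the mutant in Cy5 it had -3.29, -2.73 and -0.09 in mice 1, 2 and 4, and with the mutant in Cy3 it had -3.00, 0.02 and 0.74 in mice 1, 3 and 4. The 3 values of mice 1 and 2 were near the bottom of their arrays, at the 0.814th to the 2.57th percentile, and those of mice 3 and 4 between the 45.2nd and the 78.0th. The mean ratio was -1.38 ± 0.669 (adjusted p = 0.167), where mice 2 and 3 entered with 1 array each, and no swap component was tested. For Avp as for Npy, mice 1 and 2 stood below mice 3 and 4, the sets joined by the highest correlations with the mutant in Cy3. For Cck, mice 1 and 2 stood above mice 3 and 4 in both orientations. No label used here separates these sets, and their part in the values was not tested.

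Tac1, the precursor of substance P and neurokinin A (chr6:7555061-7562978), gave opposite signs in its probes. Probe 16913 had 0.09, 0.24, 0.17 and 0.27 in mice 1 to 4 with the mutant in Cy5, and -0.24, 2.77, 1.04 and -0.29 with the mutant in Cy3. It lay within a narrow range in the first orientation and spread widely in the second, where mouse 2 reached the 99.95th percentile of its array. The mean ratio was 0.51 ± 0.295 (adjusted p = 0.234) and the swap component -0.31 ± 0.271 (adjusted p = 0.469). Probe 8993 had a value on 5 arrays, -1.93, -0.90 and -2.15 in mice 2, 3 and 4 with the mutant in Cy5, and -2.14 and 1.23 in mice 1 and 3 with the mutant in Cy3. Its mean ratio of -1.51 ± 0.427 passed (limma, adjusted p = 0.0462), but mice 1, 2 and 4 entered with 1 array each. Without mouse 1, 2 or 4 the adjusted p was 0.126, 0.141 and 0.136, and with arrays scaled to one spread it was 0.0611. In this probe 2 of 5 values, both of mouse 3, equalled ratios of whole numbers up to 10, and in Npy 1 of 6 did. None of the values of the other 6 probes matched, and per array 4.76% to 8.73% of all values did.

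Pomc, the precursor of corticotropin, melanocortins and beta-endorphin (chr12:3954945-3960643), ran against Cck, Sst and Penk. It had -1.16, 1.61, 0.09 and 0.79 in mice 1 to 4 with the mutant in Cy5, and -2.22, -1.82, -1.65 and -0.24 with the mutant in Cy3. In every mouse the value with the mutant in Cy5 was the higher, while the orientations overlapped. The swap component of 0.91 ± 0.225 was above that of 99.0% of probes and missed the threshold (limma, adjusted p = 0.0597), with the mice at 0.53, 1.72, 0.87 and 0.52. By orientation, the mean was 0.33 with the mutant in Cy5 (adjusted p = 0.674) and -1.48 with the mutant in Cy3 (adjusted p = 0.0256), where 13.5% of 19308 probes passed below 0. Its mean ratio was -0.58 ± 0.337 (adjusted p = 0.236). Over the 8 arrays Pomc correlated with Sst at -0.952, with Penk at -0.788 and with Cck at -0.769, and 0.0901%, 7.56% and 9.25% of other named probes were as low against Pomc.

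Pomc is also a hormone gene of the pituitary, and 4 of 10 pituitary markers were measured, by 4 probes. Their swap components were all above 0 and none passed, with Gh, growth hormone, at 1.25 ± 0.58 (adjusted p = 0.204), Prl, prolactin, at 1.09 ± 0.451 (0.167), Tshb at 0.38 (0.597) and Cga at 0.03 (0.973, limma). None of the 4 passed at an unadjusted p below 0.05 either. Their median was 0.73, where that of all probes was -0.03. In the mean ratio Prl passed at -0.90 ± 0.261 (adjusted p = 0.0496) and the others lay between -0.02 and 0.18. The part of pituitary RNA in the value of Pomc was not tested.

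Each orientation was also tested by itself. With the mutant in Cy5 no precursor passed, nor did any of 19898 probes (0.00%, limma), although 4748 had an unadjusted p below 0.05, among them Avp (0.0309) and Penk (0.0323). With the mutant in Cy3, Cck, Penk, Sst (1.08, adjusted p = 0.0168) and Avp (1.10, adjusted p = 0.0221) passed above 0, as did 20.8% of all probes, and Pomc passed below 0. The mean over mice was 0.66 for Avp and 0.31 for Sst with the mutant in Cy5.

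**Figure D2:**
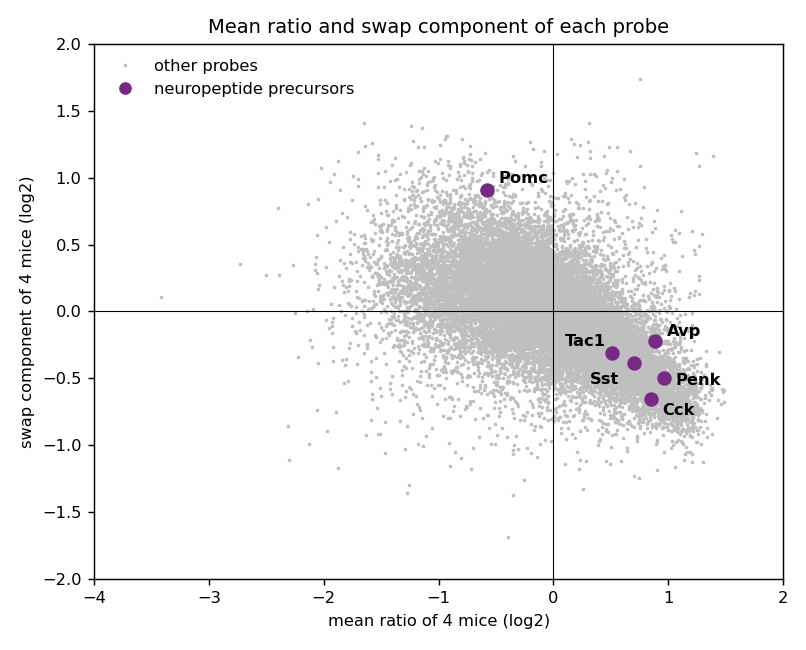
Mean ratio (horizontal axis, log2) and swap component (vertical axis, log2), each averaged over 4 mice, of 18797 probes with a value on all arrays (grey) and of the 6 precursor probes among them (purple). Cck, Penk, Sst, Avp and Tac1 probe 16913 lie at a positive mean ratio and a negative swap component, and Pomc lies at the opposite corner at -0.58 and 0.91. The share of all probes in each corner was not counted, so these positions are not shown to be particular to the precursors.

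The value of a precursor was also set beside the spots numbered around it, in runs of 48 consecutive spot numbers. No print layout was used, so the spots of a run need not lie together on the array. The median mean ratio of the run was 0.40 for Cck, 0.28 for Sst, 0.33 for Penk, 0.37 for Avp and 0.42 for Tac1 probe 16913, above the -0.09 of all probes. Within its run Penk ranked 5 from the top, as did Avp, Cck ranked 7 and Sst 11, while Tac1 probe 16913 ranked 20 and stood 0.09 above the median of the run. Tac1 probe 8993 and Npy ranked 45 of 48 and 43 of 47. With runs centred in place of arrays, Penk passed at 0.60 (adjusted p = 0.0386, limma), while the adjusted p was 0.0594 for Cck (0.45), 0.285 for Sst (0.25), 0.137 for Avp (0.51) and 0.0742 for Tac1 probe 8993 (-1.20).

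**Figure D3:**
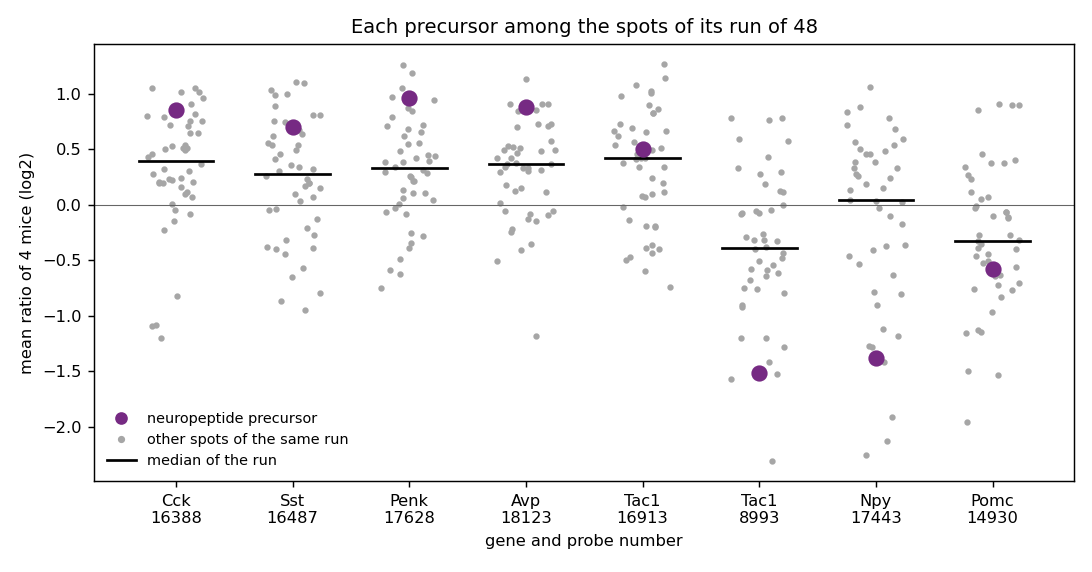
Mean ratio of 4 mice (vertical axis, log2) of each precursor (purple) and of the other spots in its run of 48 (grey), with the median of the run as a black line. The runs of Cck, Sst, Penk, Avp and Tac1 probe 16913 have medians of 0.28 to 0.42, and those of Tac1 probe 8993 and Pomc medians of -0.39 and -0.32.

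Genes that process precursors and build secretory granules were measured by 23 probes of 18 genes. In the mean ratio 6 probes passed above 0 and 1 below, where 17.0% and 13.3% of all probes did. The median was 0.11, with 15 probes above 0 and 8 below. Ptprn, a membrane protein of dense-core vesicles, had 1.24 ± 0.134 (limma, adjusted p = 0.00924), Sort1, a sorting receptor, 0.97 ± 0.132 (adjusted p = 0.00941), and Scg5, the chaperone of the convertase PC2, 0.96 ± 0.134 (adjusted p = 0.00956). Pcsk1n, which encodes an inhibitor of the convertase PC1, had 0.85 ± 0.141 (adjusted p = 0.0119). The other probe of Sort1 stood at 0.42 (adjusted p = 0.115). The probe that passed below 0 was Cadps (-0.82), whose other probe stood at 0.32 (adjusted p = 0.375). Cpe, with a value on 7 arrays, stood at -1.19 ± 0.387 and did not pass (limma, adjusted p = 0.0665). In the swap component 3 of 21 probes passed, all below 0, Pcsk1n (-0.73), Scg5 (-0.67) and Ptprn (-0.57), where 6.43% of all probes passed below 0. The median was -0.32, and that of all probes was -0.03.

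Of 31 receptor genes for these peptides only 2 were measured, Cckbr (0.04 ± 0.234) and Sstr3 (-0.02 ± 0.276), and neither passed in the mean ratio (lowest adjusted p = 0.915, limma, 0 at an unadjusted p below 0.05). Other neuropeptide precursors gave 8 probes of 7 genes, none past the threshold, 2 of them at an unadjusted p below 0.05, with a median of -0.04. The lowest adjusted p was 0.0565, for a probe of Trh (-0.48 ± 0.146), and the other probe of Trh stood at 0.31 (adjusted p = 0.145).

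Interneuron markers, only some of which share cells with Sst and Npy, gave 7 probes of 6 genes, with 1 call above and 1 below 0 in the mean ratio. Of all probes 17.0% passed above 0 and 13.3% below. Slc32a1, the vesicular GABA transporter, had 0.93 ± 0.126 (limma, adjusted p = 0.00941). Gad1, which makes GABA, had -1.64 ± 0.19 in probe 10231 (adjusted p = 0.00924) and 0.10 in probe 18594 (adjusted p = 0.653). In the swap component Pvalb, parvalbumin, passed at -0.78 ± 0.141 (adjusted p = 0.0385). Striatal markers, which share cells with Penk and Tac1, gave 12 probes of 7 genes with 4 calls above and 1 below 0. Their median was 0.17, with 7 probes above 0 and 5 below. Rgs9 did not pass, at -1.06 ± 0.367 in probe 11203 (limma, adjusted p = 0.0767) and 0.09 in probe 4868. Ppp1r1b, the phosphoprotein DARPP-32, had 0.94 ± 0.127 (adjusted p = 0.0094) and Pde10a had 0.89 ± 0.17 (adjusted p = 0.016), with its other probe at -0.44 (adjusted p = 0.0553). Drd2, the dopamine receptor of enkephalin neurons, passed with opposite signs in 2 of 3 probes, at -1.28 ± 0.182 and 0.70 ± 0.147. Bcl11b, a transcription factor of these neurons, had 0.70 ± 0.135 in 1 probe (adjusted p = 0.0165) and -0.28 in the other (adjusted p = 0.386). The first of these also passed in the swap component, at -0.58 ± 0.111 (limma, adjusted p = 0.03995).

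**Figure D4:**
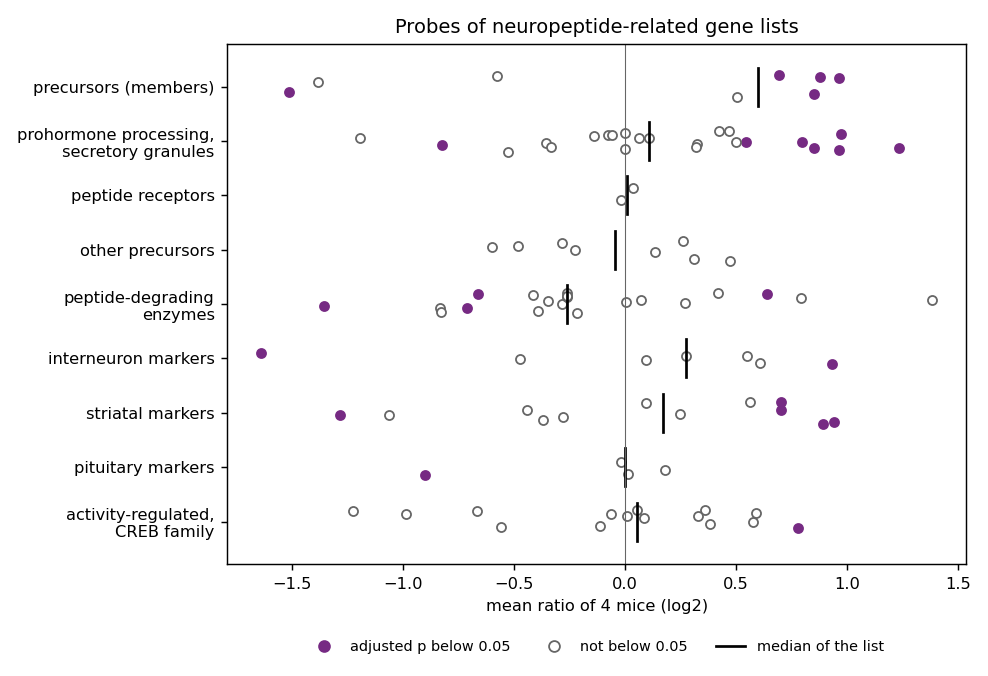
Mean ratio of 4 mice (horizontal axis, log2) of each probe, by gene list from top to bottom, filled where the limma adjusted p was below 0.05, with the median of the list as a black line. The precursors have a median of 0.60, the processing and granule genes 0.11 and the other precursors -0.04.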

How the data were processed

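The deposited table holds log2 ratios of 2 channels on 8 cDNA arrays, and the log2 scale with 1 constant per array was inferred from the deposited values. Per the labels' protocols, RNA was isolated on columns and labelled indirectly with Cy3 or Cy5. Background correction, normalisation and the numerator of the ratio were not given in the sources used here. Values at log2 of 100000 plus the constant (1 to 30 per array) were set to missing, beside 221 to 553 cells already empty.

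Array medians were subtracted. limma 3.58.1 (R 4.3.3, lmFit with an intercept, eBayes) tested 4 mouse values against 0 over all probes, adjusted by Benjamini-Hochberg, with calls at an adjusted p below 0.05. The mean ratio needed a value in every mouse and the swap component all 8 arrays. The code was tested on simulated data. No depth or spot intensity was used, so the number of mice limits the precision, and errors are moderated SEs.

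Names use the platform annotation at spot number plus 11, for annotation numbers up to 20000, with RefSeq symbols (GRCm38.p6, 12771 of 12771 found by gene identifier). At this shift 2 probes of a gene gave Spearman rho = 0.261 across 2573 genes, and -0.0121 without it. The shift was found in these data. Members and lists were chosen with earlier results of these data known. Named were Adarb1, all member probes, up to 4 called genes per list and, for Cck, Sst and Penk, the 3 most correlated probes. Other probes of such a gene, and Cadps, Cpe, Rgs9 and the receptor, Trh and uncalled pituitary probes, were added after their values were seen.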

Additional observations from a re-analysis of the deposited data

Results flagged for a closer look

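Among 26 sets of 4 values of the precursor probes (the arrays of each orientation, the mouse means and the swap components), 2 held a mouse far from the other 3, and chance alone gives about 1 in 20. In the swap component of Cck, mouse 4 at -0.55 stood apart from -0.70, -0.68 and -0.70, with a gap of 0.893 of the whole range. In the mean ratio of Tac1 probe 8993, mouse 3 at 0.16 stood apart from -2.14, -1.93 and -2.15, with a gap of 0.903 of the range, and mouse 3 was the only mouse with both arrays measured.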

How the results depend on the processing

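Counts over all probes changed as follows. The mean ratio had 3507 calls above 0, 2286 as deposited and 1438 to 2204 with 1 mouse left out, and 2749 below 0, 1014 to 1727 with 1 mouse left out. Both counts were 0 with only the Cy5 orientation of the mutant (1986 and 2762 at an unadjusted p below 0.05, limma). The swap component had 265 calls above and 1208 below 0. These became 156 and 793 with probes measured in at least 3 mice, and the first became 421 with whole-number ratios left out, when 12290 probes were tested. They were 0 and 0 as deposited, with runs of 48 spots centred, with arrays scaled to one spread, and with any mouse left out (1292 to 3094 above and 2523 to 3580 below 0 at an unadjusted p below 0.05). In the mean ratio Penk kept its call in 11 of 12 alternative settings, Cck in 9, and Avp and Sst in 6 each. Tac1 probe 8993 kept it in 3 of 8. Npy, Pomc and Tac1 probe 16913 had no call to lose. With these included, 66 of 89 alternative values of the precursors kept sign and side of the threshold. Another 21 lost the call, 1 gained it and 1 turned, Pomc at 0.33 with the mutant in Cy5 alone. In the swap component only Cck had a call, kept in 3 of 10 settings. Of 60 values there, 49 kept both sign and side, and 7 lost the call, all of Cck. Another 2 gained it (Penk and Pomc, with whole-number ratios left out and fewer probes tested). The last 2 turned, Avp at 6.25e-05 with runs centred and Tac1 probe 16913 at 0.00458 without mouse 2 (from -0.51 with 1 mouse left out). The other causes were not tested. No paired analysis was possible because there is 1 group, and the 2 arrays of a mouse were already joined. Missing arrays limit Npy and Tac1 probe 8993, and spot strength was not tested, as no intensities were used.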

Other observations

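Enzymes that degrade peptides were measured by 20 probes of 12 genes, with 1 call above and 3 below 0 in the mean ratio and a median of -0.26. Of all probes 17.0% passed above 0 and 13.3% below. Dpp4, which removes dipeptides, had -1.36 ± 0.315 (limma, adjusted p = 0.027). Ace, the angiotensin-converting enzyme, had -0.71 ± 0.191 in probe 10425 (adjusted p = 0.0404), where the swap component of 0.71 ± 0.132 also passed (adjusted p = 0.0394), while its other probes stood at 0.27 and -0.26 and did not pass. Ece1, the endothelin-converting enzyme, had -0.66 ± 0.161 in probe 9728 (adjusted p = 0.031) and 0.42 and -0.26 in its other probes, which did not pass. Tpp1, a lysosomal peptidase, had 0.64 ± 0.128 (adjusted p = 0.0185), and its swap component was -0.66 ± 0.138 (adjusted p = 0.0455).

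Activity-regulated genes and the CREB family gave 15 probes of 13 genes, with 1 call, Homer1 at 0.78 ± 0.165 (limma, adjusted p = 0.0213), where 17.0% of all probes passed above 0. In this list 4 probes had an unadjusted p below 0.05. Their median mean ratio was 0.05. In the swap component 0 of 14 passed and 7 had an unadjusted p below 0.05, with 10 below 0 and a median of -0.28.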
